A study of Mus musculus with 5 samples.

Results

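Acta2, Acta1, Actc1, Tagln, Myl9, Cnn1 and Myh11 are the genes of 3 muscle actins and 4 proteins of the smooth muscle contractile apparatus. They were taken by symbol from spatial transcriptome tables of 5 neonatal mouse heart sections, and all 7 were listed in every table and among the 13711 genes that the tables share. The hearts came from wild-type C57BL/6 mice that had, on postnatal day 1, either myocardial infarction (MI, by ligation of the left anterior descending artery) or a sham operation, and were collected 3 or 7 days later. There was 1 section of sham day 3, 1 of sham day 7, 1 of MI day 3 and 2 of MI day 7, each a 10 µm transverse section taken 200 µm below the suture, and the study describes the MI day 7 sections as independent biological replicates and each other section as 1 biological sample. Each section was placed on a Visium slide, where spots of capture probes take up RNA from the tissue above them, so that a spot holds several cells of different types. The comparisons ask where in the section each gene was found, and whether Acta2, a marker of the regenerating cardiomyocyte state as well as of smooth muscle, followed genes of vessel smooth muscle or genes of cardiomyocytes.

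Actins are the thin-filament proteins of muscle. Acta2 encodes smooth muscle actin, Acta1 skeletal muscle actin and Actc1 cardiac actin, and immature or stressed cardiomyocytes are known to carry the first pair beside the cardiac form. Tagln (transgelin) and Cnn1 (calponin) encode proteins that bind actin, Myl9 the regulatory light chain of smooth muscle myosin, and Myh11 its heavy chain, which is largely restricted to mature smooth muscle of vessels. Tagln, Cnn1, Acta2 and Myl9 are also found in myofibroblasts. Serum response factor, which binds the CArG box (2 C, 6 A or T, 2 G), is a known regulator of genes of this kind.

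In GRCm38, per GENCODE, the actin genes lie at chr19:34241090-34255590 (Acta2, minus strand), chr8:123891769-123894751 (Acta1, minus strand) and chr2:114047282-114053548 (Actc1, minus strand). Myl9 lies at chr2:156775420-156781658 on the plus strand, Tagln at chr9:45929619-45936058 on the minus strand, Cnn1 at chr9:22099216-22109630 on the plus strand and Myh11 at chr16:14194535-14291372 on the minus strand. RefSeq start windows on GRCm38.p6, from 250 bases before the start of transcription to 50 after it, were at hand for 5 of the 7 genes. A strict CArG box, searched on both strands, was in the windows of Acta1, Actc1 and Myl9, against 1.63% of the 32851 windows of all genes, and was not in those of Acta2 and Cnn1. The strict search leaves out near matches, such as ccctatatgg in the windows of Acta2 and Actc1 and ccttgtttgg in that of Acta2. A window without a strict box is therefore not shown to lack a site of this kind. The windows of these 3 genes and of Acta2 are shown because these genes have their values compared most closely here, with the box in capitals where it occurs (chr8:123894726-123895025, minus strand; chr2:114052826-114053125, minus strand; chr2:156775214-156775513, plus strand; chr19:34255324-34255623, minus strand).
Acta1: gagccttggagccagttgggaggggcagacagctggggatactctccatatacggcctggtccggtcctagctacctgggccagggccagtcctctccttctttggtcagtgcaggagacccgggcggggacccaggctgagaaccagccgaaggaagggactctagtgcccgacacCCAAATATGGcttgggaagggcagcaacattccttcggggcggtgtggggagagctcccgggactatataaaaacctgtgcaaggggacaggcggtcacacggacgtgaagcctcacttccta
Actc1: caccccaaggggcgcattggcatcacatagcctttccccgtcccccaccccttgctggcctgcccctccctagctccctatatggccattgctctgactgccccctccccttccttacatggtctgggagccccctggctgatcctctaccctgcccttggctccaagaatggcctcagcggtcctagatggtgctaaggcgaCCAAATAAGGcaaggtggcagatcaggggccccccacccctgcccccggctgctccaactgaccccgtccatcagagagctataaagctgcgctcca
Myl9: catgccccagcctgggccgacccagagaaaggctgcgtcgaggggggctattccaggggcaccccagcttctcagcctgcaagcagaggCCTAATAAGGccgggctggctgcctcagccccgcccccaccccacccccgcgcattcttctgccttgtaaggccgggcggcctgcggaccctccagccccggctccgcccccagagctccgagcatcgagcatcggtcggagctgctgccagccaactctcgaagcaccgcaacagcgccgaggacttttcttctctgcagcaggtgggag
Acta2: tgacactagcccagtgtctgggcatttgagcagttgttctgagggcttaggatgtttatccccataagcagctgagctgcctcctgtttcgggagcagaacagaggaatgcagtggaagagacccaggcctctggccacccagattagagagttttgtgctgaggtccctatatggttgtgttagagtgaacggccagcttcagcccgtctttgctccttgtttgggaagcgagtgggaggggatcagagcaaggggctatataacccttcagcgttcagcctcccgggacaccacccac
Counted from the RefSeq start of transcription, the box lay at -73 to -64 in Acta1, at -47 to -38 in Actc1 and at -161 to -152 in Myl9. The Actc1 window lies wholly inside the bounds that GENCODE gives for the gene, so its distances hold for the RefSeq start only. TATAAA, in 13.6% of all windows, lay at -7 to -2 in Acta1 and at 33 to 38 in Actc1. CATTCC, in 14.7% of windows, was at -46 to -41 in Acta1 and, on the other strand, at -146 to -141 in Acta2. These matches are letters in a window and show no binding. The assay reads the 3′ end of transcripts, where the actins differ. Of all 50-base stretches in the last 500 bases of the transcripts of the 7 genes, none was shared between members, and only Acta1 had stretches in another annotated gene (31 of 902, 3.44%, Actb among the holders).

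The 3346 spots used had a median of 20842.5 to 53988.5 raw UMIs (unique molecular identifiers, one for each captured transcript) per section, and 18 lone spots off the tissue in the 3 MI sections, of at most 4947 raw UMIs, were left out. The section of MI day 7 replicate 1 stood apart, with 24.7% of values in mitochondrial genes against 13.8 to 15.8% in the others, and it was also the most deeply sequenced. The table of sham day 3 holds raw UMI counts, while the other 4 hold counts corrected for depth separately within each section. Values are given as CPM (values per 1000000 over the shared genes of a spot), averaged over the spots of a section. A level set across sections is therefore set across tables that were normalised apart. Since 1 UMI is 1 molecule of a gene at its 3′ end, CPM was not scaled by the transcript's length. A lower level in a spot can mean fewer cells of a type or less RNA in each, which cannot be told apart here.

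Actc1 was present in every spot used of every section. Its mean was 9944 CPM in sham day 3, 11222 in sham day 7, 9004 in MI day 3, 8825 in MI day 7 replicate 1 and 10249 in MI day 7 replicate 2. The highest section was 1.27-fold above the lowest, the narrowest range of the 7 genes, and the MI sections overlapped the sham sections. Acta2 was present in 98.8 to 100% of spots. Its mean was 420 CPM in sham day 3, 374 in sham day 7, 533 in MI day 3, 286 in MI day 7 replicate 1 and 595 in MI day 7 replicate 2. The MI day 7 replicates were the lowest and the highest section, so the groups overlapped and the spread between replicates (440 ± 219 CPM, SD, n = 2) covered both shams. Acta1 was present in 76.3 to 91.8% of spots, at 104, 170, 204, 63.5 and 295 CPM in the same order of sections, and here too the MI day 7 replicates were the extremes. Acta2 and Acta1 thus ordered the 3 MI sections alike, with replicate 2 of day 7 highest and replicate 1 lowest, and Actc1 placed the same replicates at the top and bottom of the MI sections in a much narrower range.

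Tagln was present in 32.7 to 69.7% of spots. Its mean was 44.1 CPM in sham day 3, 45.2 in sham day 7, 94.1 in MI day 3, 27.2 in MI day 7 replicate 1 and 45.4 in MI day 7 replicate 2, so that MI day 3 stood above the other 4 sections. Cnn1 showed the same high section more sharply, at 12.2, 5.28, 55.0, 3.05 and 8.98 CPM in that order, and was present in 57.1% of the spots of MI day 3 against 8.44 to 19.5% elsewhere. Myh11 did not share it. It was the most even of the 4 smooth muscle genes, at 16.1, 23.8, 14.3, 14.9 and 19.2 CPM, and was present in 11.6 to 34.3% of spots. Myl9 was present in 99.2 to 100% of spots, at 680 CPM in sham day 3, 638 in sham day 7, 520 in MI day 3, 183 in MI day 7 replicate 1 and 391 in MI day 7 replicate 2. It was the only one of the 7 genes whose MI and sham sections did not overlap, with MI lower, where 9.20% of the 12950 genes tested had MI lower without overlap and 16.3% did not overlap in either direction.

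**Figure D1:**
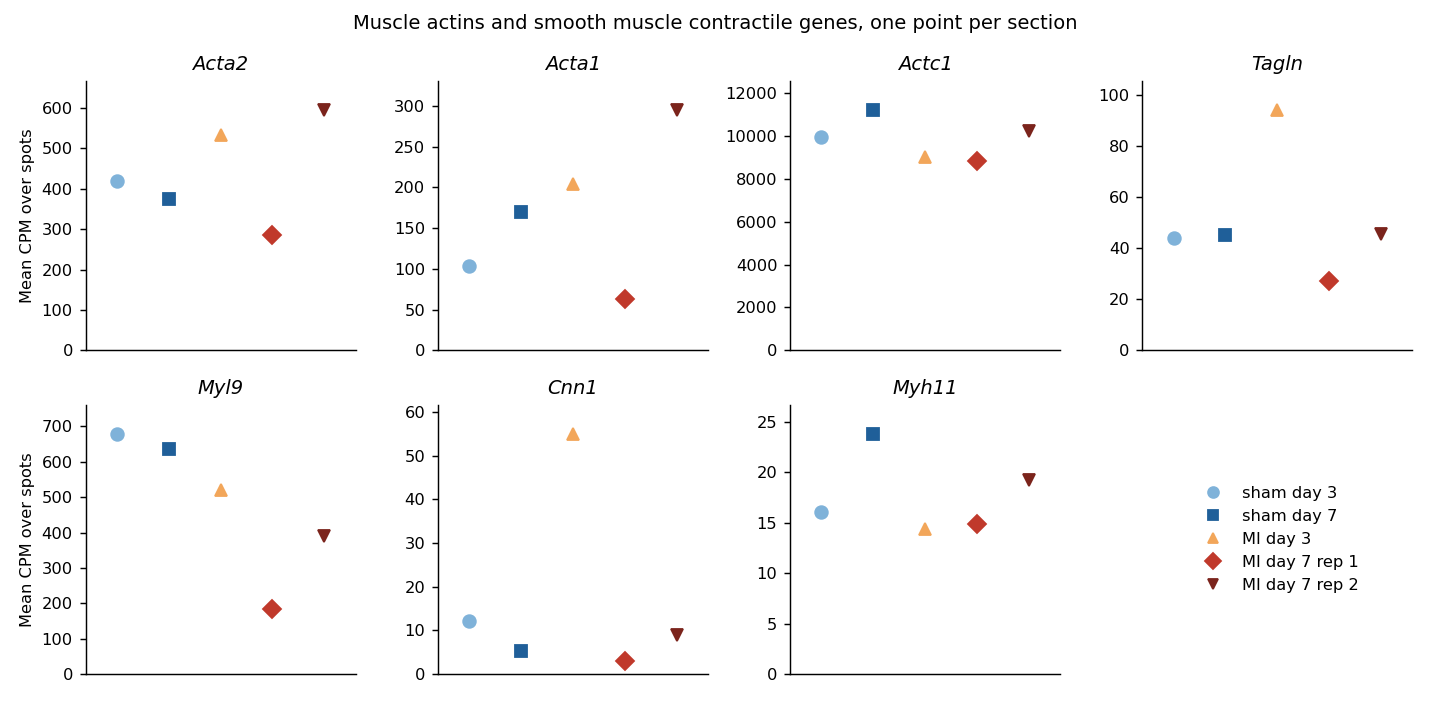
Mean CPM over spots of each gene (vertical axes, each from 0 on its own scale), 1 point per section, with sham sections in blue and MI sections in orange and red. Cnn1 and Tagln are highest in MI day 3 at 55.0 and 94.1 CPM, Myl9 is lower in all MI sections than in both sham sections, and the MI day 7 replicates lie far apart for Acta2 and Acta1.

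At day 3, with 1 section a group and no test, Cnn1 was 4.50-fold higher in MI than in sham, Tagln 2.13-fold, Acta1 1.97-fold and Acta2 1.27-fold, while Actc1, Myh11 and Myl9 were at 0.906, 0.892 and 0.765 of sham. On the log2(CPM + 1) scale 3 of the 7 were at least 1.5-fold higher, where 8.91% of all genes were, and none was 1.5-fold lower, where 2.42% were. In sham day 3, where raw counts allow an interval, the summed 136 UMIs of Cnn1 and 174 of Myh11 have exact 95% Poisson intervals of 114 to 161 and 149 to 202, which cover counting error only. At day 7, against sham day 7, Acta2 was at 0.764 of sham in one MI replicate and 1.59-fold in the other, Acta1 at 0.373 and 1.73-fold, and Cnn1 at 0.578 and 1.70-fold. For these 3 genes the replicates fell on opposite sides of the sham section. Myl9 was below sham in both, at 0.287 and 0.613, and so were Myh11 (0.625 and 0.807) and Actc1 (0.786 and 0.913).

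Across both days, limma with day as a covariate called 0 of the 7 genes (Benjamini-Hochberg adjusted p under 0.05), where 0.00772% of 12950 genes (1 gene) were called. Before adjustment 722 genes had MI higher and 342 had it lower at p under 0.05, and Myl9 was the only member among them. Myl9 was at -0.88 log2 (SE 0.34) in MI against sham, adjusted p = 0.572. Cnn1 was at 0.90 (SE 0.52, adjusted p = 0.723), Acta2 at 0.23 (SE 0.29), Tagln at 0.26 (SE 0.34), Acta1 at 0.24 (SE 0.61), Actc1 at -0.20 (SE 0.20) and Myh11 at -0.33 (SE 0.16). All of these but Actc1 moved in sign or size with the sections or spots used. Without either day 3 section Cnn1 was at 0.0183, Myl9 at -1.251, Tagln at -0.35 and Acta1 at -0.31. Without MI day 7 replicate 1 Myl9 was at -0.55 (adjusted p = 0.0597), Cnn1 at 1.38 (0.0869), Acta2 at 0.51 (0.0726) and Tagln at 0.54. Without replicate 2 Acta2 was at -0.0217 and Acta1 at -0.22. Without sham day 7 Myl9 was at -0.39, Tagln at 1.08 and Acta1 at 0.97, and in CM1-dominant spots Myh11 was at 0.46 and Acta1 at -0.40. None of these values passed the test. The call on Acta1 turned on a single section: without MI day 7 replicate 1 Acta1 was called higher (0.88, adjusted p = 0.00986), in a fit with 1 residual degree of freedom. Without sham day 7 only 1 sham section is left. The difference is then that of MI day 3 against sham day 3, with 1 section each, which allows no test. Cnn1 was at 2.08 there. At day 7 alone 1 sham section was set against 2 MI sections, so that the spread came from the MI pair and from the values limma shares over genes, and the sham section was assumed to vary alike. Limma again called 0 of 7 there, where 0.0695% of genes were called. Before adjustment 296 genes had MI higher and 193 had it lower at p under 0.05, with Myl9 again the only member. Myl9 was then at -1.251 (SE 0.36, adjusted p = 0.551). It was past the threshold with the values of spots summed (-1.249) and in CM1-dominant spots alone (-1.51), but these fits had 1 residual degree of freedom and took nearly all of their spread from other genes (prior degrees of freedom 47.5 and infinite, against 11.6), so that they add no replicate evidence for Myl9.

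No gene of the lists of related genes passed the test in MI against sham across days. Of 12 other smooth muscle contractile genes, 6 were above 0 across days and none passed, with a median of 0.01 log2 against -0.00 over all genes. Pln and Hspb1, the most abundant of the list, are also cardiomyocyte genes. Of 11 pericyte genes none passed and the median was 0.05, and of 10 non-muscle counterparts of the members, such as Actb and Actg1, none passed and the median was -0.01. Among 12 measured genes of the serum response factor pathway none passed, with a median of 0.03. Other lists also had no gene past the test but were higher in MI day 3 than in sham day 3, beside the high Tagln and Cnn1 there. The summed level of macrophage genes was 1055 against 135 CPM (9 of 9 higher across days, median 1.28), of fibroblast genes 6813 against 4702 (11 of 12, median 0.54), of immature or stressed cardiomyocyte genes 15810 against 7639 (8 of 11, median 0.41) and of blood genes 11394 against 4413 (6 of 6, median 0.81). Most of the difference of the immature or stressed list was Nppa (8170 against 612 CPM), while Tnni1 (1516 against 2235), Csrp3 (1047 against 1405) and Myl4 (70.2 against 76.8) were lower in MI day 3. Elastic artery genes were at 1224 against 741 CPM (7 of 8, median 0.57), and mature cardiomyocyte genes were instead lower, at 48070 against 58212 CPM (1 of 13 higher across days, median -0.13). The part of these lists in the levels of Tagln and Cnn1 was not tested.

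Spots were next sorted by the cell type with the highest score among 11 scores that the authors transferred from a single-nucleus reference. CM1 to CM5 are cardiomyocyte states of that reference, with CM4 the regenerating state marked by Acta2, and FB, EC and EndoEC are fibroblasts, endothelium and endocardium. The scores were made from the same expression values, so differences by class are descriptions and carry no test. Acta2 was higher in CM4-dominant than in CM1-dominant spots of all 5 sections. Its mean was 351 against 316 CPM in sham day 3, 343 against 254 in sham day 7, 859 against 393 in MI day 3, 393 against 201 in MI day 7 replicate 1 and 667 against 509 in replicate 2, a mean log2 ratio of 0.61 ± 0.41 (SD, n = 5). FB-dominant spots held more Acta2 still in 4 of the 5 sections, at 705, 633, 718, 521 and 961 CPM, and only in MI day 3 was CM4 the highest class. EndoEC-dominant spots were also above CM4 in sham day 3 (379 CPM) and in MI day 7 replicates 1 (397) and 2 (684). They were below it in sham day 7 (335) and MI day 3 (560). EC-dominant spots were above CM4 only in MI day 7 replicate 2 (676). Acta1 had the highest mean ratio of the 7 genes, with 128 against 103 CPM in sham day 3, 290 against 162 in sham day 7, 734 against 125 in MI day 3, 89.6 against 42.6 in MI day 7 replicate 1 and 830 against 171 in replicate 2. That is a mean log2 ratio of 1.40 ± 0.96 (SD, n = 5). Actc1 was nearly level between the classes, at -0.01 ± 0.27 (SD, n = 5), higher in 2 sections and lower in 3.

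The smooth muscle genes were on average higher in CM4 than in CM1 spots and higher again in FB spots, but not in every section. Tagln had a mean log2 ratio of 1.18 ± 0.77 for CM4 and 2.76 ± 0.46 for FB over CM1, Myh11 of 1.00 ± 0.64 and 2.41 ± 1.253, and Cnn1 of 1.13 ± 1.29 and 2.28 ± 0.65 (SD, n = 5 each). Myl9 had 0.69 ± 0.81 and 0.98 ± 0.50. In MI day 3 the order of CM4 and FB turned, with CM4 above FB spots for Cnn1 (184 against 103 CPM), Myl9 (1083 against 799) and Myh11 (35.7 against 11.9), as for Acta2, though not for Tagln (182 against 207). Macrophage-dominant spots of that section (20 spots) held the most Tagln, at 232 CPM, and were second to CM4 for Cnn1, at 142 CPM. EC-dominant spots there held the most Myh11, at 41.0 CPM. In sham day 3 CM4 was below CM1 for Myl9 (526 against 663) and Cnn1 (5.87 against 7.25). Acta1 was the only member with a higher mean ratio in CM4 than in FB spots beside Actc1, with 1.40 against 0.79 ± 0.99, but in MI day 7 replicate 1 it too was higher in FB (150 CPM) than in CM4 spots (89.6), and in sham day 3 its FB spots were below CM1. In all, 4 of the 7 genes (Acta2, Acta1, Tagln and Myh11) were higher in CM4 in every section, where 8.74% of 12950 genes were, and none by 1.5-fold in every section, where 0.0772% were. In FB over CM1, 5 genes were higher in every section (Acta2, Tagln, Myl9, Cnn1 and Myh11), where 31.2% of genes were, and 3 by at least 1.5-fold in every section (Acta2, Tagln and Cnn1), where 3.38% were. Endothelial classes held smooth muscle genes as well, with Acta2, Tagln, Myl9 and Myh11 higher in EC-dominant than in CM1-dominant spots of every section (4 of 7, where 13.9% of genes were) and Acta2, Tagln and Cnn1 in EndoEC-dominant spots (3 of 7, where 16.8% were). The mean log2 ratio of Tagln over CM1 was higher in EC (1.37) and EndoEC spots (1.49) than in CM4 spots. That of Myh11 was higher in EC (1.44) but not in EndoEC spots (-0.36). In Macrophage-dominant spots Myh11 alone was higher in every section (1 of 7, where 12.2% of genes were) and Actc1 alone lower (1 of 7, where 4.62% were). Fibroblast signal was itself present in CM4 spots, whose mean FB score was 4.27 to 12.4% against 0.940 to 2.86% in CM1 spots, and 10 of 12 fibroblast genes were higher in CM4 spots in every section. So were 7 of 8 elastic artery genes, 5 of 9 macrophage genes, 3 of 12 other smooth muscle genes and 1 of 11 pericyte genes. The part of these signals in the ratios was not tested.

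The CM4 ratios were larger in MI than in sham sections for 5 of the 7 genes without overlap, where 35.3% of all genes had MI higher without overlap. Myl9 ranged from 1.02 to 1.66 log2 in MI and from -0.33 to 0.07 in sham, Cnn1 from 0.83 to 3.02 and from -0.26 to 0.30, and Acta1 from 1.06 to 2.54 and from 0.31 to 0.84. Myh11 (1.15 to 1.89 and 0.23 to 0.54) and Actc1 (-0.06 to 0.34 and -0.30 to -0.20) did the same, while Acta2 and Tagln overlapped. The CM4 spots also sat elsewhere. In the shams 56.1 and 43.1% of them were edge spots, with fewer than 6 neighbours, against 12.5, 1.32 and 15.1% in the MI sections. The part of position in these ratios was not tested.

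**Figure D2:**
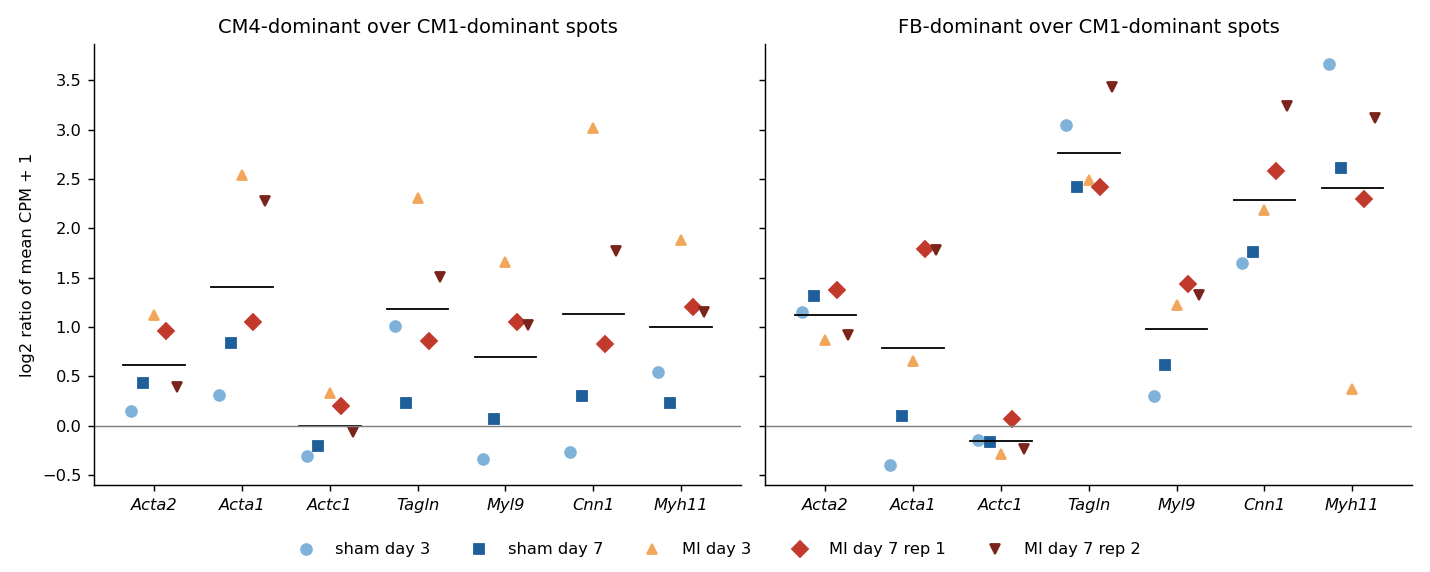
Log2 ratio of mean CPM + 1 (vertical axes) in CM4-dominant spots (left) and FB-dominant spots (right) over CM1-dominant spots for each gene, 1 point per section, with a short line at the mean of the 5 sections and a grey line at 0. Acta1 has its highest mean in CM4 spots (1.40) and Tagln in FB spots (2.76), while Actc1 lies near 0 in both panels.

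Myh11, the gene most restricted to mature smooth muscle, was used to mark spots rich in smooth muscle transcripts, taken as the highest 5% of spots of each section by Myh11. They held 50.4 to 81.4% of all Myh11. Tagln there was 21.6-fold above the other spots in sham day 3, 17.9-fold in sham day 7, 4.13-fold in MI day 3, 9.17-fold in MI day 7 replicate 1 and 13.9-fold in replicate 2. Acta2 was 4.25, 5.15, 2.65, 3.33 and 2.64-fold higher in the same order. Both genes were at least 1.5-fold higher in all 5 sections, as 1.03% of all genes were, and MI day 3 had the smallest Tagln ratio. Myl9 was 1.35 to 2.60-fold and Cnn1 1.39 to 13.3-fold higher, with the lowest of each in MI day 3. Acta1 was 1.62, 1.56 and 2.05-fold higher in the day 7 sections and at 0.873 and 0.852 in the day 3 sections, and Actc1 was at 0.878 to 1.01. In all, 4 of the other 6 genes were higher in every section, where 10.5% of all genes were.

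The same spots held only 12.1 to 21.3% of the summed Acta2 of a section, against 17.6 to 53.0% of Tagln. Most Acta2 therefore came from the remaining spots, where its mean was 362, 310, 493, 256 and 550 CPM. In spots where neither Myh11 nor Cnn1 had a value, which were 34.4 to 74.4% of a section, the mean of Acta2 was still 353 CPM in sham day 3, 287 in sham day 7, 415 in MI day 3, 246 in MI day 7 replicate 1 and 535 in replicate 2. Since Myh11 and Cnn1 were sparse, a value of 0 does not show that a spot held no smooth muscle. Within those spots Acta2 was 1.01-fold in CM4 against CM1 in sham day 3, 1.41-fold in sham day 7, 1.90-fold in MI day 7 replicate 1 and 1.30-fold in replicate 2, and Acta1 was 1.27, 1.74, 2.29 and 3.84-fold. Tagln was at 1.74, 1.11, 1.06 and 1.56-fold and Myl9 at 0.774, 1.07, 2.251 and 1.90-fold in the same order. FB-dominant spots among them held more Acta2 than CM4-dominant ones in all 4 sections, with 478 against 316 CPM in sham day 3, 389 against 338 in sham day 7, and 413 against 355 and 742 against 645 in MI day 7. MI day 3 had fewer than 10 such CM4 spots and gave no value.

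In 3 of the 5 sections most of the highest Acta2 spots were FB-dominant. Of the highest 5% by Acta2, FB-dominant spots made up 77.8% in sham day 3, 91.7% in sham day 7, 11.1% in MI day 3, 55.9% in MI day 7 replicate 1 and 46.2% in replicate 2, where FB-dominant spots were 22.4, 27.7, 6.01, 13.7 and 11.9% of all spots. Of the Myh11-rich spots the FB-dominant share was 70.4, 85.4, 0, 47.1 and 41.0%, so the FB class also held many of the spots rich in smooth muscle transcripts. In MI day 3 CM4-dominant spots were instead the largest group, at 38.9% of the highest Acta2 spots and 10.9% of all spots. Few spots had Pericyte/SMC, the score for pericytes and smooth muscle, as their highest score (5 to 16 a section), so the highest 10% of spots by that score were taken. Myh11 was higher there in all 5 sections, by 20.9, 2.43, 5.71, 3.62 and 3.28-fold in the usual order, where 5.86% of all genes were higher in every section. Acta2 was higher in 4 of 5 (2.43-fold in sham day 3, 0.961 in sham day 7, 1.49 in MI day 3, 1.57 and 1.23 in MI day 7), and so was Tagln. Acta1 went the other way in 4 of 5, at 0.400 to 0.781 of the other spots, with sham day 3 at 1.23-fold. Cnn1 was mixed, at 1.94, 0.680, 0.324, 2.43 and 0.329.

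**Figure D3:**
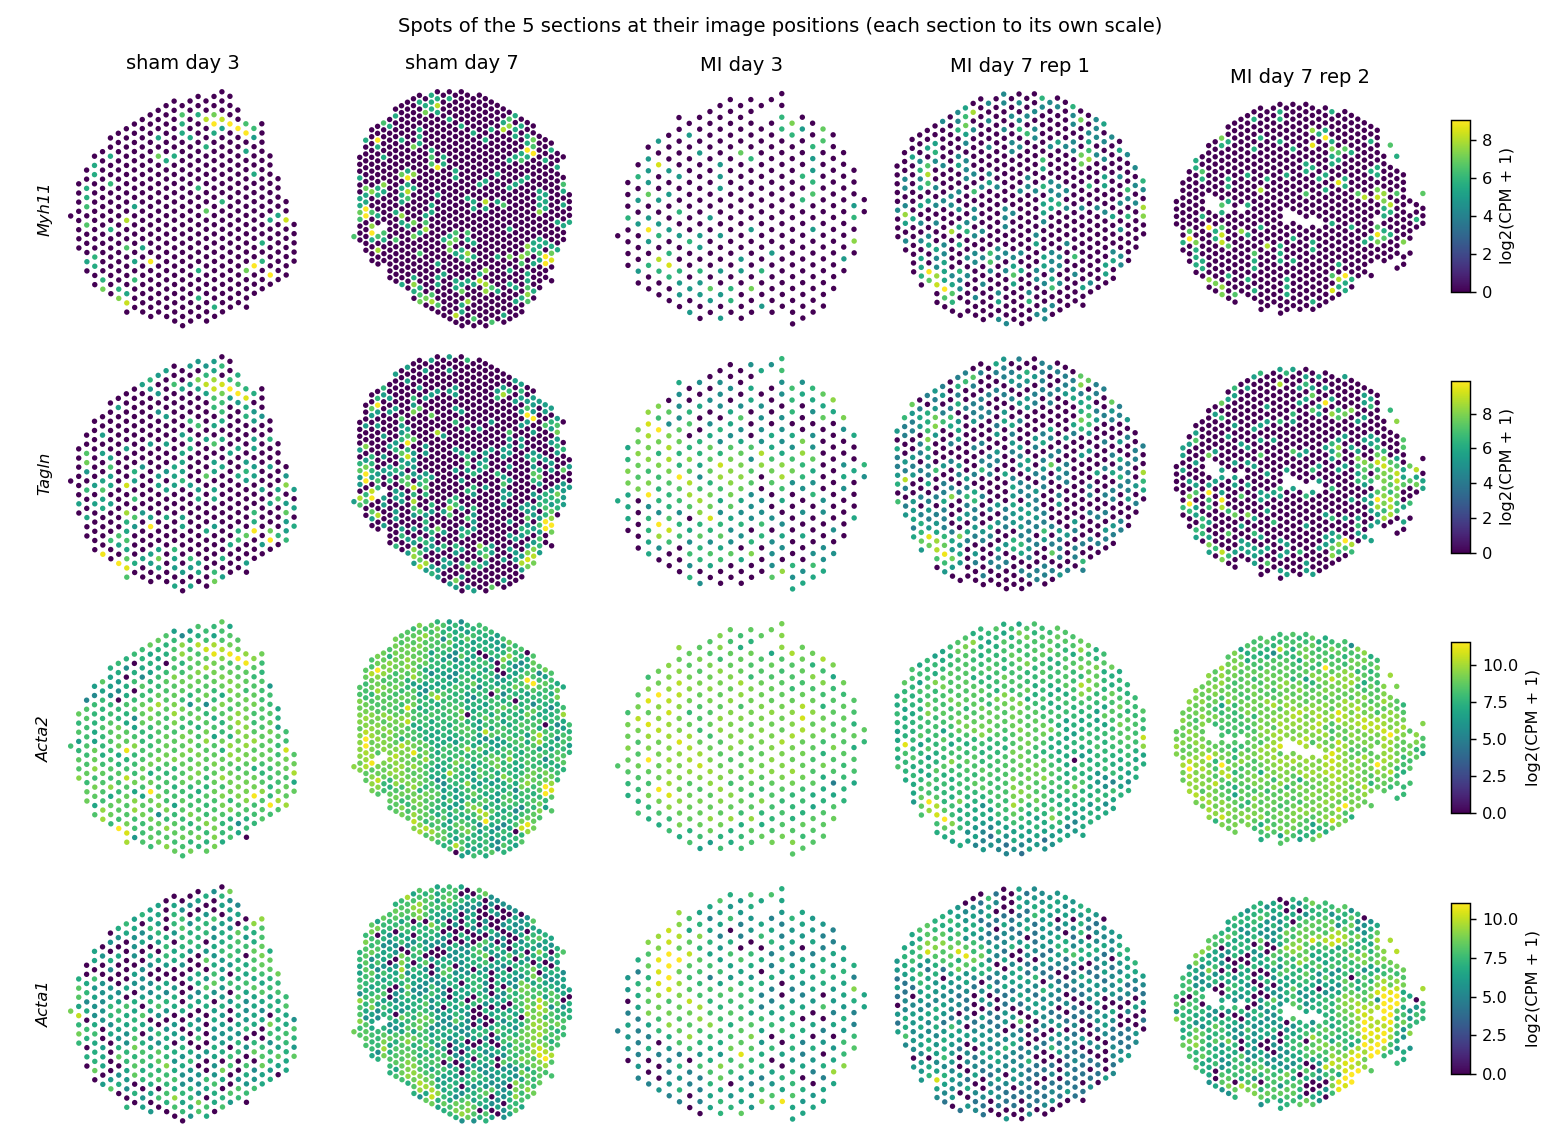
Each spot of the 5 sections (columns) at its position on the tissue image, coloured by log2(CPM + 1) of Myh11, Tagln, Acta2 and Acta1 (rows, each with its own colour scale, on which the highest 0.5% of spots share the top colour). Myh11 lies in scattered clusters in which Tagln and Acta2 are also high, while Acta2 covers the whole section and Acta1 is high in 1 broad area of MI day 3 and along 1 side of MI day 7 replicate 2.

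The genes differed in how far they were gathered into few spots. The gene's own highest 5% of spots held a mean of 7.05% of Actc1 (6.43 to 8.51% over the sections), 13.7% of Myl9, 18.4% of Acta2, 29.3% of Acta1, 48.5% of Tagln, 54.7% of Cnn1 and 63.3% of Myh11. Genes present in fewer spots tended to be the more gathered, with exceptions. In MI day 7 replicate 2 Cnn1 was in fewer spots than Myh11 (12.3 against 16.5%) but less gathered (61.3 against 68.9%). The part of detection in the order of the genes was not tested. Moran's I, which is near 0 where neighbouring spots are unrelated and rises as they become alike, was 0.51 for Actc1, 0.44 for Myl9, 0.38 for Acta2, 0.30 for Acta1, 0.25 for Tagln, 0.21 for Cnn1 and 0.16 for Myh11 on average. Tagln, Cnn1 and Myl9 were most alike between neighbours in MI day 3, at 0.44, 0.46 and 0.66. Of the 166 highest spots that each gene has over the 5 sections, Acta2 shared 95 with Myh11 and 89 with Tagln but 19 with Acta1, and Acta1 shared 19 with Myh11. Acta1 shared more with Myl9 (42) and Cnn1 (39), and in MI day 3 it shared 9 of 18 with each of Actc1, Myl9 and Cnn1. In MI day 3 Tagln shared only 4 of 18 with Myh11, against 52.9 to 66.7% in the other sections.

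**Figure D4:**
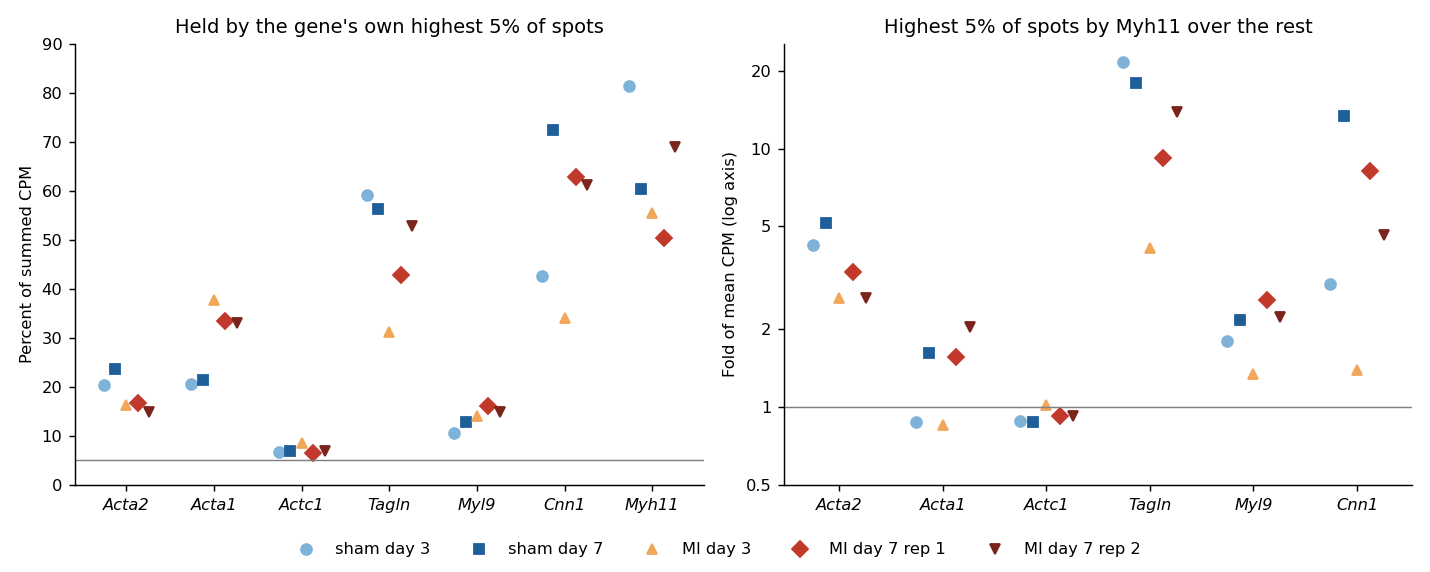
Left, percent of a gene's summed CPM held by its own highest 5% of spots, with a grey line at 5%, the share of an even spread. Right, fold of mean CPM in the highest 5% of spots by Myh11 over the rest on a log axis, with a grey line at 1, 1 point per section in both. Actc1 is closest to even and Myh11 the most gathered, and the Tagln fold is smallest in MI day 3 (4.13).

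Across the spots of a section, Spearman correlations among the 7 genes were weak to moderate. They share library, depth and the scaling to CPM, and are given as descriptions, as the mean and range over 5 sections. Acta2 and Myl9 were the closest pair, with rho 0.51 (0.40 to 0.63). Acta2 followed with Tagln at 0.32 (0.18 to 0.54), Myh11 at 0.25 (0.20 to 0.32), Cnn1 at 0.21 (0.13 to 0.34) and Acta1 at 0.20 (0.06 to 0.29). Acta2 and Actc1 were at 0.10, with a range from -0.25 in sham day 7 to 0.30. In sham day 7 Actc1 CPM fell with the raw UMIs of a spot (rho -0.59), and the part of depth in that value was not tested. Among the smooth muscle genes, Tagln was at 0.29 with Myh11, 0.30 with Myl9 and 0.26 with Cnn1, while Cnn1 and Myh11 were at 0.11. Acta1 was closest to Myl9 (0.28, from 0.13 to 0.50) and near 0 with Myh11 (0.06). Actc1 was negative with Tagln in all 5 sections (-0.16, from -0.21 to -0.08). Within CM1-dominant spots alone, 15 of the 21 pairs had a lower mean rho, with Acta2 and Tagln at 0.17, Acta2 and Myh11 at 0.13, Acta2 and Cnn1 at 0.10 and Acta2 and Myl9 at 0.43. All 6 pairs with Actc1 had a higher one, among them Acta2 at 0.26, Myl9 at 0.32 and Tagln at -0.00.

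**Figure D5:**
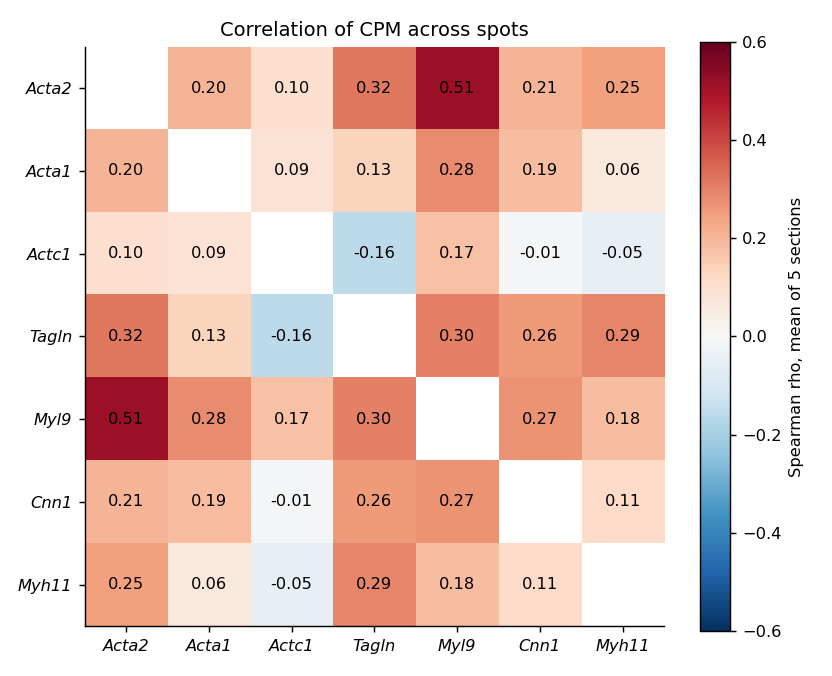
Mean over the 5 sections of the Spearman rho of CPM across spots for each pair of genes, printed in each square and coloured from blue (negative) to red (positive). Acta2 with Myl9 is highest at 0.51, and Actc1 is near 0 or negative with Tagln, Cnn1 and Myh11.

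The genes most like Acta2, Acta1 and Myh11 over spots were found among 9523 genes ranked by mean rho over the 5 sections. Beside Myl9, Acta2 was most like Postn (periostin, 0.40), Bgn (biglycan, 0.37), Eln (elastin, 0.37), Fstl1 (0.37) and Sparc (0.37), the first 3 and Sparc being genes of the extracellular matrix. Acta1 was most like Nppa (0.33, from 0.10 to 0.62) and Nppb (0.30), which encode the natriuretic peptides, Ankrd1 (0.28), a stress gene of cardiomyocytes, Des (desmin, 0.24) and Mfap4 (0.24), a gene of the extracellular matrix, with the members Myl9 and Acta2 at ranks 3 and 11. Myh11 was most like Mustn1 (0.30), Sema3g (0.29), Mylk (myosin light chain kinase, 0.22), Mgp (matrix Gla protein, 0.22) and Stmn2 (0.22), with Tagln and Acta2 at ranks 2 and 4. From Acta2, Myh11 was at rank 55 and Acta1 at rank 122.

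Over the gene lists, Acta2 had a median rho of 0.25 with 12 fibroblast genes and 0.30 with 7 elastic artery genes, of 0.13 with 8 measured smooth muscle genes, of 0.10 with 9 genes of immature or stressed cardiomyocytes and of -0.20 with 13 genes of mature cardiomyocytes, against 0.02 over all genes. Tagln gave 0.27, 0.32, 0.13, 0.05 and -0.22 in the same order. For Acta2 the smooth muscle list ran from -0.30 (Pln, also a cardiomyocyte gene) to 0.28 (Tpm2). The immature or stressed list ran from -0.33 (Tnni1) to 0.34 (Ankrd1). Acta1 gave 0.12 and 0.08 with the first 2 lists and 0.23 with the immature or stressed cardiomyocyte genes, its highest, and -0.11 with those of mature cardiomyocytes. Actc1 had 0.26 with the immature or stressed list, and it was alone in being positive with all 13 mature cardiomyocyte genes (median 0.46, Myl2 highest at 0.55) and with none of the 12 fibroblast genes. Myh11 had low values with all of them, 0.16 with elastic artery genes being the highest. Myh11 was present in only 11.6 to 34.3% of spots. The part of this in its correlations and in its ranks was not tested.

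Position in the section gave a comparison that used neither the scores nor the expression values. Edge spots, with fewer than 6 neighbours (76 to 160 a section), were set against interior spots in limma with the section as a block. Actc1 was lower at the edge in all 5 sections (9018 against 10117 CPM in sham day 3, 10975 against 11258 in sham day 7, 7925 against 9287 in MI day 3, 7298 against 9076 and 8838 against 10608 in MI day 7), at -0.20 log2 (SE 0.05, adjusted p = 0.0345). Myl9 was lower in 4 of 5, with 631 against 689 CPM in sham day 3, 646 against 636 in sham day 7, 326 against 571 in MI day 3, and 143 against 189 and 340 against 404 in MI day 7, at -0.31 (SE 0.08, adjusted p = 0.0264). Thus 2 of 7 were called lower and none higher, where 4.57% of 13336 genes were called and 3.77% were lower. The median gene was itself at -0.12 under this scaling, so that the differences of Actc1 and Myl9 were in part those of the median gene, and both calls were lost with median-of-ratios scaling, which put the median at -0.00 (Actc1 -0.07, Myl9 -0.19). There Acta1 was called higher at the edge instead (0.30, adjusted p = 0.0416). Acta1 was at 0.18 (SE 0.08, adjusted p = 0.160) with CPM scaling, above interior spots in 4 of 5 sections, Acta2 at -0.21 (SE 0.07, adjusted p = 0.0887), and Tagln, Cnn1 and Myh11 did not pass either. Leaving out 1 section ended both calls in 3 of 5 cases, and both stayed without sham day 7 or MI day 7 replicate 2. Actc1 was at -0.17 (adjusted p = 0.212) without MI day 7 replicate 1, -0.21 (0.0810) without sham day 3 and -0.20 (0.105) without MI day 3, and Myl9 at -0.29 (0.104), -0.36 (0.0521) and -0.19 (0.116). Without sham day 7 Acta2 was called lower as well (-0.31, adjusted p = 0.0172). With all 5 sections, no member, Acta2 included, was called lower with median-of-ratios scaling. The same held with the spots next to edge spots counted as edge.

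The lists were read against the 3.77% of all genes called lower at the edge, calls that fell from 503 to 59 genes with median-of-ratios scaling. Of the lists, 1 of 12 smooth muscle genes was called lower (Kcnmb1, a potassium channel subunit, -0.84, adjusted p = 0.0453) and 3 of 11 pericyte genes were (Mcam -0.41, Cspg4 -0.32, Higd1b -0.47), as were 3 of 13 mature cardiomyocyte genes (Actn2 -0.18, Mb -0.19, Tnnc1 -0.19). Of 11 immature or stressed cardiomyocyte genes 5 were lower (Nppa -1.30, Nppb -0.70, Myl4 -0.55, Xirp2 -0.44, Ankrd1 -0.44). Single genes of other lists were lower as well, with Fhl2 of the serum response factor pathway at -0.22 (1 of 12), Mfap5 of the elastic artery list at -0.61 (1 of 8), the endothelial Emcn at -0.31 (1 of 9) and the endocardial Cytl1 at -1.44 (1 of 5). The fibroblast list went both ways, with Col1a1 (0.53), Col1a2 (0.44) and Col3a1 (0.38) higher and Postn lower (-0.38). Epicardial genes (2 of 3 measured, Msln at 2.83 and Krt19 at 0.86), macrophage genes (2 of 9, Csf1r and Mrc1) and blood genes (5 of 6) were called higher at the edge, where 0.802% of all genes were (107 genes, and 176 with median-of-ratios scaling), and the part of these cells in the values of the members there was not tested.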

How the data were processed

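Visium libraries of 5 sections were analysed from tables that the authors made with Space Ranger on mm10 (GRCm38; version not given in the sources used here) and Seurat. The deposited table of sham day 3 holds UMI counts per gene and spot. The other 4 tables hold counts corrected for depth by sctransform, fitted within each section, so no count model was used. The authors' spot tables add raw UMI counts, cell type scores as a fraction (given here as percent), and other columns of image position. Spots not joined to the section within 2.25 spacings were left out after their positions were seen. Values were scaled to CPM over 13711 shared genes and averaged per section. limma 3.58.1 (R 4.3.3) with a mean-variance trend was fitted to log2(mean CPM + 1) over all genes with a mean of at least 1 CPM in 2 columns, two-sided, with Benjamini-Hochberg adjustment, and checked on simulated data. A fold change on this scale understates the change of low genes. Replicates are sections, and per the study's supplement the MI day 7 pair are independent biological replicates and each other group is 1 biological sample. Class comparisons, Myh11-rich spots, correlations and concentration (Python 3.11.15, numpy 2.4.6, scipy 1.17.1) are descriptions, since scores come from the same values. No doublet step applies to spots. Sections shared 3 to 449 spot barcodes, because slides reuse barcodes. The 7 genes and the lists were chosen with earlier results of these data known. Named genes were the 7 members, list genes past a test or else the 2 most abundant of their list, and the 5 genes most like Acta2, Acta1 and Myh11. Nppa, Tnni1, Csrp3 and Myl4 in MI day 3 were named after their values were seen.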

Additional observations from a re-analysis of the deposited data

Results flagged for a closer look

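Of 56 sets of 5 section values screened, made of each member's CM4 ratio, Pericyte/SMC ratio, edge ratio, Moran's I and share in its highest spots and of each pair's rho, 2 had 1 section far from the others by Dixon's test, which chance does in about 1 in 20 sets. The share of Actc1 held by its highest 5% of spots was 8.51% in MI day 3 against 6.43 to 6.87% in the other 4 sections. Moran's I of Tagln was 0.436 in MI day 3 against 0.167 to 0.219 in the others.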

How the results depend on the processing

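No paired analysis was possible because MI and sham share fewer than 2 replicate numbers, while the edge comparison has the section as a block throughout. Across days, MI against sham, 0 members passed under each alternative other than leaving out a section (0 to 1 members). Acta2 turned to -0.0217 without MI day 7 replicate 2 (up to 0.51 without replicate 1). Acta1 turned to -0.40 in CM1-dominant spots alone, to -0.31 without sham day 3 or MI day 3 and to -0.22 without MI day 7 replicate 2 (up to 0.97 without sham day 7), Tagln to -0.35 without either day 3 section (up to 1.08 without sham day 7), and Myh11 to 0.46 in CM1-dominant spots. None of these passed. At day 7, 1 member (Myl9) passed with spot values summed and in CM1-dominant spots, where Cnn1 turned to -0.41. At day 7 the calls stayed at 0 without either day 3 section, and leaving out a day 7 section left no residual degrees of freedom or no sham. At the edge, 1 member passed with median-of-ratios scaling, 0 without mitochondrial and haemoglobin genes, 2 in CM1-dominant spots (Acta1 higher, 0.26), 0 with the next spots counted as edge, and 0 to 3 without 1 section. With the next spots, Cnn1 turned to 0.0281 and Myh11 to 0.59, and without 1 section Cnn1 ranged from -0.37 to 0.0427. Spots with few raw UMIs or lone spots, both chosen after seeing the data, changed no direction or call of a member. Genes called at day 7 were 9 in all, 72 with spot values summed, 66 in CM1-dominant spots, 30 with lone spots kept and 0 with median-of-ratios scaling or without mitochondrial genes. At the edge 610 genes were called with CPM scaling (107 higher, 503 lower) and 235 with median-of-ratios scaling (176 higher, 59 lower). The CM4 ratio of Tagln was 0.39 in spots without Myh11 and Cnn1, and that of Myh11 was 0 as a median over spots, most of which have no Myh11. In CM1-dominant spots, rho was 0.135 for Acta2 with Myh11, 0.155 for Tagln with Myh11 and -0.0183 for Cnn1 with Myh11, and at or above the median depth it was 0.248 for Tagln with Myh11. The highest 10% of spots held 27.8% of Acta2, 42.5% of Acta1, 13.5% of Actc1, 63.4% of Tagln, 23.5% of Myl9, 80.4% of Cnn1 and 79.7% of Myh11. The cause of these changes was not tested. Most groups had 1 section, and depth in raw UMIs is known but 4 tables are corrected. Myh11 was at 0 in most spots of every section. Cnn1 was at 0 in most spots of every section but MI day 3, where 57.1% of spots held it. Differences of these sparse genes between sections are therefore uncertain.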
